A study of Mus musculus with 6 samples.

Results

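The conjugating enzymes described here are the glutathione S-transferases (GST), their membrane-bound relatives (MGST), the UDP-glucuronosyltransferases (UGT) and the cytosolic sulfotransferases (SULT) of the mouse. Members were the protein-coding genes of the GENCODE M21 annotation whose symbols begin with Gst and a class letter (a, k, m, o, p, s, t or z), with Mgst, with Ugt and a family digit from 1 to 3, or with Sult. All 67 such genes were found among the 54886 genes listed for every library: 22 GST, 3 MGST, 21 UGT and 21 SULT genes. RNA was sequenced from GC-2spd cells, an immortal mouse line derived from spermatocytes, of BALB/c strain background. The control group is labelled as untreated and in normal medium, and the PM2.5 group received 100 μg/mL of PM2.5 for 48 h. Per the study's methods, the particles were a standard reference urban dust suspended in phosphate-buffered saline, and control wells of the proliferation assay were given a small amount of that saline. Whether the sequenced controls were given it was not stated. Each group had 3 libraries. The methods speak in general of 3 experiments but do not say that these libraries came from separate cultures, so that p-values measure the spread between these libraries, which may be technical. Levels are in FPKM, fragments per kilobase of exon divided by a scaling factor of each library. As deposited, these factors followed the median of ratios between libraries and not the total of reads.

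Conjugation is the step of detoxification in which a polar group is joined to a reactive or fat-soluble compound so that it can be exported. GST enzymes join glutathione to electrophiles, such as epoxides of polycyclic aromatic hydrocarbons and aldehydes from lipid peroxidation. UGT enzymes transfer glucuronic acid from UDP-glucuronate, and SULT enzymes transfer sulfate from phosphoadenosine phosphosulfate. Several of these genes are known targets of NRF2, which binds the antioxidant response element (ARE), and of the aryl hydrocarbon receptor (AhR), which binds the xenobiotic response element (XRE).

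Because the GST genes tested below are candidates for control through these elements, stretches of 30 bases around the element cores found before their starts are shown. They were taken from RefSeq promoters on GRCm38.p6, which held an entry for 59 of the 67 members and none for Gsta4, which was therefore not searched. The 250 bases before each start were searched on both strands. Capitals mark the ARE core TGACNNNGC (or its reverse complement) or the XRE core GCGTG (or its reverse complement).
Gstm5 ARE, chr3:107895801-107895830, + strand: gcaccgcccacTGACCACGCggagggcggg
Gstm7 ARE, chr3:107931725-107931754, - strand: gtctgaagaccTGACAAAGCgaagccaatc
Mgst1 ARE, chr6:138140460-138140489, + strand: ggcggggcttgGCACGGTCAggaggcgggg
Gstm1 XRE, chr3:108018033-108018062, - strand: agattctgtttcaGCGTGtgcaaaacagaa
Gstm5 XRE, chr3:107895670-107895699, + strand: gtgcaacatgactCACGCttcccgggtaac
Gstp1 XRE, chr19:4037909-4037938, - strand: cccggtggcctacGCGTGcgtcctcactct
Mgst3 XRE, chr1:167393847-167393876, - strand: ggcggtcccgaggGCGTGgccgcgcggggc
In the M21 annotation, the Gstm7, Gstp1 and Mgst1 stretches lie wholly in exons of their own genes. The Gstm5 ARE stretch overlaps its first exon by 10 bases, and an XRE core in reverse complement lies inside that stretch. The Gstm1, Mgst3 and other Gstm5 stretches lie outside their genes, 60, 6 and 122 bases upstream. The ARE core was found in 4 of the 59 members (6.78%), against 11.5% of all 27025 genes with a promoter entry. The XRE core was found in 11 of the 59 members (18.6%), against 30.9% of all genes. A match to these letters is a description of the sequence and not a binding site.

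Control library 2 stood apart from the other libraries. Reads per library, recovered from FPKM and exon length, were 18003197, 16209346 and 17511452 in control libraries 1, 2 and 3, and 17000293, 17114012 and 17530613 in PM2.5 libraries 1, 2 and 3. Across genes, the Pearson correlation of log2 FPKM was 0.992 between control libraries 1 and 3, but 0.742 and 0.745 between control library 2 and these. Mitochondrial genes took 14.5% of the reads of control library 2 and 1.65% to 1.95% in each of the other libraries. PM2.5 library 3 correlated at 0.9502 and 0.958 with PM2.5 libraries 1 and 2, which correlated at 0.991 with each other. PM2.5 library 3 correlated at 0.972 with each of control libraries 1 and 3, so it was nearer to these controls than to its own group. The FPKM of control library 2 rest on a scaling factor of 0.800 times its reads, against 1.03 to 1.05 times in the other libraries, so its levels are higher than a scaling to total reads would give. Its place among the libraries is given below on the deposited scaling and can differ on the other. Tests were made with all 6 libraries and again without control library 2.

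The spermatocyte label was checked against marker genes. None of 15 spermatocyte markers reached a mean of 1 FPKM, and 5 of them (Spo11, Hormad1, Dazl, Pgk2 and Piwil1) were at 0 in every library. Their summed level was 1.34, 3.51 and 1.12 FPKM in control libraries 1, 2 and 3 and 0.443, 0.502 and 1.01 FPKM in the PM2.5 libraries, with the synaptonemal complex gene Sycp3 the highest by mean, although Meiob was above it in control libraries 1 and 3 and PM2.5 library 1. Of 9 fibroblast and peritubular markers, 6 reached a mean of 1 FPKM, and the list summed to 927, 1459 and 948 FPKM in the control libraries and 934, 927 and 722 FPKM in the PM2.5 libraries. The collagen gene Col1a1 had the highest mean of these, at 412, 452 and 425 FPKM in the control and 435, 437 and 193 FPKM in the PM2.5 libraries, but Vim was above it in control library 2 and PM2.5 library 3. None of the 9 was at 0 in every library. Values of 4 markers of this list follow, none of which was called between the groups. Col1a2 was at 202, 199 and 201 FPKM in the control and at 135, 130 and 115 FPKM in the PM2.5 libraries, and Col3a1 at 13.97, 17.8 and 13.6 FPKM and at 9.58, 9.61 and 7.52 FPKM, both lower without overlap. Acta2 was at 41.6, 88.3 and 43.3 FPKM in the control and at 59.2, 58.1 and 59.5 FPKM in the PM2.5 libraries, and Vim at 254, 698 and 262 FPKM and at 291, 288 and 343 FPKM. Both were higher without overlap only when control library 2 was left out. Of all genes tested, 6.85% were lower without overlap with all 6 libraries, and 17.7% were higher without overlap when control library 2 was left out. The log2 fold changes with and without that library were -0.66 and -0.67 for Col1a2 (limma, adjusted p 0.875 and 0.0802) and -0.70 and -0.59 for Col3a1 (limma, adjusted p 0.875 and 0.144). They were 0.12 and 0.46 for Acta2 (limma, adjusted p 0.920 and 0.1002) and -0.23 and 0.25 for Vim (limma, adjusted p 0.897 and 0.389), and none was called. These 4 were named after their values were seen. The cells are accordingly called GC-2spd cells and not spermatocytes.

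Most markers of other cell types were low. The Sertoli marker Gata4 was at 17.5, 14.2 and 18.2 FPKM in the control and 22.3, 19.6 and 11.1 FPKM in the PM2.5 libraries. Of 9 Sertoli markers, 2 reached a mean of 1 FPKM, Gata4 and Inha, and Gata4 was the most abundant. Amh did not, although it was at 2.35 FPKM in control library 2. Cldn11 and Fshr were at 0 in every library. The list summed to 19.7, 20.5 and 20.6 FPKM in the control and 25.2, 21.5 and 12.8 FPKM in the PM2.5 libraries. Of 7 Leydig markers, 1 (Star) reached a mean of 1 FPKM, Hsd3b1, Hsd17b3 and Lhcgr were at 0, and the sums were 2.04, 2.59 and 2.01 FPKM in the control and 1.74, 1.84 and 1.89 FPKM in the PM2.5 libraries. Hepatocyte markers are of interest because liver is rich in conjugating enzymes. None of these 8 genes reached a mean of 1 FPKM, although Apoa2 was at 1.29 FPKM in control library 2, and 6, including Alb, were at 0 in every library. They summed to 0.903, 1.73 and 0.458 FPKM in the control libraries and 0.521, 0.630 and 0 FPKM in the PM2.5 libraries, with Apoa2 the most abundant. Of 7 immune and endothelial markers, 1 reached a mean of 1 FPKM and 3 (Ptprc, Adgre1 and Cd3e) were at 0. Their sums were 1.32, 15.6 and 1.06 FPKM in the control and 1.90, 1.42 and 2.22 FPKM in the PM2.5 libraries. The lysosomal gene Cd68 was the most abundant of them and made up 15.5 FPKM of the sum in control library 2. The part of these markers in the results below was not tested.

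GC-2spd cells expressed glutathione transferases, while glucuronosyltransferases and sulfotransferases were at or near 0. A mean of at least 1 FPKM over the 6 libraries was reached by 15 of the 67 members, 12 of the 22 GST and all 3 MGST genes. It was reached by 0 of 21 UGT and 0 of 21 SULT genes. In all, 32 members had no read in any library: 17 UGT genes, 14 SULT genes and the pi-class gene Gstp3. The 42 UGT and SULT genes together held 217 reads over the 6 libraries, against 91642 reads for the 25 GST and MGST genes. A gene with no read could still hold up to 3 reads in a library, or 0.0808 to 0.116 FPKM for a gene with 2000 bases of exon, and such limits cover counting error only. How reads that fit several genes were counted was not stated, and such reads may be missing from these counts. Among SULT genes with no read, the share of transcript stretches of 31 bases found in other genes ran from 0% (Sult1b1) to 74.5% (Sult2a2).

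**Figure D1:**
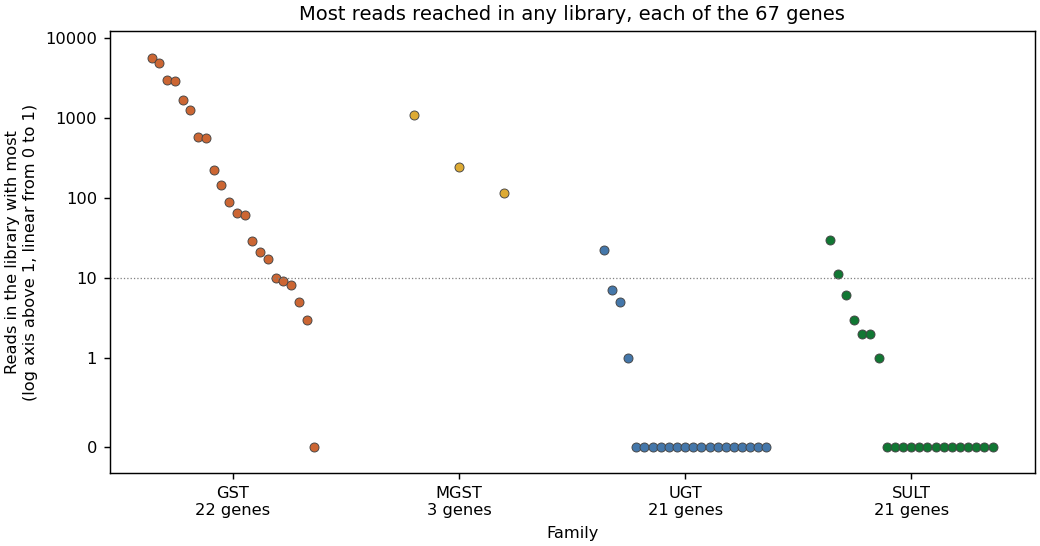
Each point is 1 of the 67 genes, placed by its family (horizontal axis) and by its reads in the library where it had most (vertical axis, logarithmic above 1 and linear below), with a dotted line at 10 reads. GST and MGST genes reached up to 5486 reads (Gstp1, approximate), whereas the highest UGT gene reached 22 and the highest SULT gene 30 reads.

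All 10 genes of the Ugt2 family, which acts on steroids and bile acids, and both Ugt3 genes had no read in any library. Of the exon bases, 98.8% in Ugt2a1 and 94.5% in Ugt2a2 lie in same-strand exons of other genes, so their lack of reads says little. Exons of Ugt2a3 and the Ugt2b genes lie outside other genes, but 56.4% of the transcript stretches of 31 bases of Ugt2b5 and 52.9% of Ugt2b38 are shared. In the Ugt1 family 4 of 9 genes had reads. These genes share their last exons on chromosome 1, so that 50.3% to 60.6% of the exon bases of Ugt1a6a, Ugt1a6b, Ugt1a7c and Ugt1a5 lie in exons of another Ugt1a gene, and the division of reads between them is uncertain. Reads from the shared exons may also be missing from the counts of every Ugt1a gene. Ugt1a7c had 6, 0 and 14 reads in control libraries 1, 2 and 3 and 9, 18 and 22 reads in PM2.5 libraries 1, 2 and 3. The groups overlapped, because control library 3 lay above PM2.5 library 1. The other 3 genes had at most 7 reads in any library.

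Among sulfotransferases, Sult2b1, which sulfates cholesterol and other hydroxysteroids, had 10, 30 and 3 reads in the control and 10, 7 and 4 reads in the PM2.5 libraries. Control library 2 was the highest of the 6, and the groups overlapped. Sult6b1 had 7, 1 and 11 reads in the control and 1, 4 and 1 reads in the PM2.5 libraries. Control libraries 1 and 3 were higher than every PM2.5 library, and control library 2 was not. Sult1a1, the phenol sulfotransferase, had at most 6 reads in any library and was named after its values were seen.

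Most genes of the donor supply lists were expressed. These lists are broader than their names, as not every listed gene makes or carries the donor, and their sums do not measure its supply. A mean of 1 FPKM was reached by all 9 genes of the UDP-glucuronate supply list. It was reached by 10 of 12 genes of the sulfate donor supply list, the exceptions being the sulfate carrier genes Slc26a1 and Slc13a4. The UDP-glucuronate supply list summed to 231, 190 and 224 FPKM in control libraries 1, 2 and 3 and to 191, 199 and 251 FPKM in PM2.5 libraries 1, 2 and 3. Ugdh, which oxidizes UDP-glucose to UDP-glucuronate, was at 24.5, 21.3 and 24.2 FPKM in the control and 22.5, 23.3 and 27.3 FPKM in the PM2.5 libraries. Papss1, which makes the sulfate donor, was at 50.8, 54.3 and 50.9 FPKM in the control and 47.5, 49.8 and 42.2 FPKM in the PM2.5 libraries. Both were well above 1 FPKM in every library. Of 17 listed regulators of conjugating enzymes, 11 reached a mean of 1 FPKM, among them Ahr, Arnt, Rxra and Nfe2l2, and 2, Nr1i2 and Hnf4a, were at 0 in all 6 libraries. The genes named here were named after their values were seen.

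The expressed glutathione transferases were of the alpha, kappa, mu, omega, pi, theta and zeta classes and the MGST genes. By mean FPKM over the 6 libraries, the pi-class Gstp1 was the highest (156), followed by the mu-class Gstm1 (115), the omega-class Gsto1 (71.0), the theta-class Gstt1 (53.4) and the mu-class Gstm5 (48.4) and Gstm2 (46.7). Gstm5 and Gstm2 cannot be ordered, as their libraries overlapped widely. Parts of this order rest on control library 2. Without it the mean of Gstt1 is 34.8 FPKM, below those of Gstm5 (46.7) and Gstm2 (43.1), and in control libraries 1 and 3 Gsto1 was above Gstm1. The microsomal Mgst1 (22.7) and the alpha-class Gsta4 (12.6) came next. Mgst3, Gstt3, Gstm4, Gstm7, Gstz1, Gstk1 and Mgst2 lay between 6.79 and 1.12 FPKM. Without control library 2 the mean of Mgst3 is 4.79 FPKM, below that of Gstt3 (6.15). Mgst2 passed the threshold through the PM2.5 group (1.33 ± 0.377 FPKM, SD, n = 3), since its control mean was 0.905 ± 0.512 FPKM (SD, n = 3). The nearest gene outside was Gstm6 at 0.805 FPKM.

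**Figure D2:**
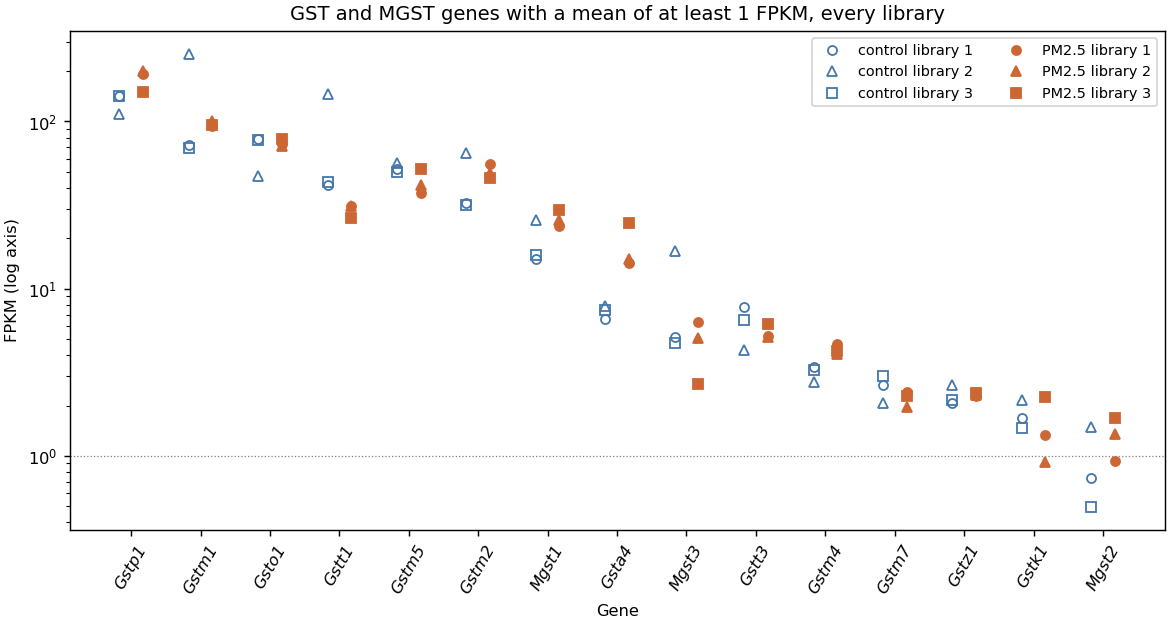
FPKM (logarithmic vertical axis) of the 15 genes with a mean of at least 1 FPKM, in order of their mean, with open blue symbols for control libraries, filled orange symbols for PM2.5 libraries and a symbol shape for each library number. The triangle of control library 2 lies away from the other control libraries for Gstm1, Gstt1 and Mgst3, while all 3 PM2.5 libraries lie above all control libraries for Gsta4.

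The summed FPKM of the 67 members was 468, 751 and 462 in control libraries 1, 2 and 3 and 548, 560 and 528 in PM2.5 libraries 1, 2 and 3. The PM2.5 libraries lay above control libraries 1 and 3 and below control library 2. The 5 highest genes of each library held 80.1% to 84.2% of the sum. Gstp1 took 30.4%, 14.8% and 30.8% of it in the control and 35.0%, 35.7% and 28.4% in the PM2.5 libraries, so that control library 2 had the lowest share. In that library Gstm1 (33.8%) and Gstt1 (19.5%) held the highest shares. Of the 15 genes, control library 2 was the highest of the 6 libraries for 6 and the lowest for 4, on the deposited scaling. Scaled to total reads its levels would be lower, so that not all of these places would hold. Its level was 3.56 times the mean of control libraries 1 and 3 for Gstm1, 3.45 times for Gstt1 and 3.41 times for Mgst3.

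**Figure D3:**
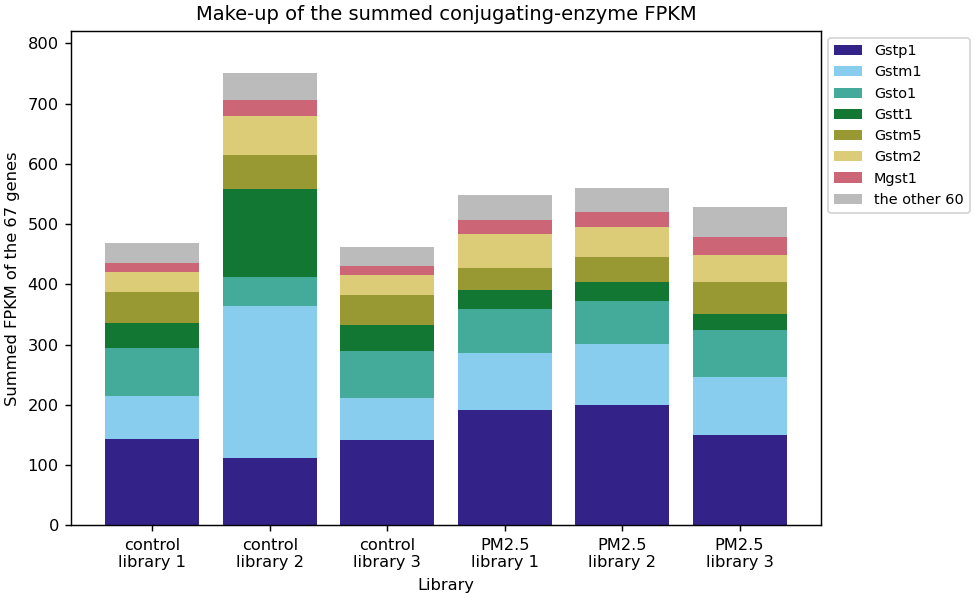
Stacked bars, starting at 0, of the summed FPKM of the 67 genes in each library, with the 7 genes of highest mean level in colour and the other 60 in grey. Control library 2 has the tallest bar (751 FPKM), with wider Gstm1 and Gstt1 segments than in the other 5 libraries.

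The comparison of the PM2.5 group with the control group asked whether exposure moved these genes. With all 6 libraries, 0 of the 15 members were called by limma (adjusted p under 0.05 and absolute log2 fold change above 1, on log2 of FPKM + 1), against 11 of 11884 genes tested (0.0926%). At an unadjusted p under 0.05 limma gave 1 member higher in the PM2.5 group, Gsta4, where 1.92% of all genes were higher, and 0 members lower, where 1.88% were lower. Without control library 2, limma again called 0 of 15 members, against 84 of 11884 genes (0.707%). At an unadjusted p under 0.05, 6 members were then higher (background 8.23%) and 1 was lower (background 7.63%) by limma. One of the 6 is Mgst2, which passed the threshold of 1 FPKM through the PM2.5 group, and without it 5 of 14 were higher. The total of 7 in either direction became 6, 5 and 10 when PM2.5 library 1, 2 or 3 was left out as well, and 4 with replicate number as a block. Leaving out control library 1 or 3 as well leaves 1 control library, and those counts are not given. The voom method of limma on recovered reads also called 0 members in either fit, with 1 and 6 members at an unadjusted p under 0.05. The median log2 fold change of the 15 members was 0.02 in both the members and all genes with 6 libraries, and 0.10 against -0.01 without control library 2. For the 14 members other than Mgst2 it was -0.05 and 0.01, so that the sign with 6 libraries turned and most of the difference without control library 2 was lost. Leaving out any other member above the median would move it alike, so this shift is not particular to Mgst2.

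Groups that did not overlap were counted as well. With all 6 libraries, every PM2.5 library was above every control library for 3 of 15 members (Gsta4, Gstm4 and Gstp1), against 8.35% of all genes. The reverse held for 1 member, Gstt1, against 6.85%. Without control library 2, the PM2.5 libraries were all higher for 8 members (background 17.7%; 7 without Mgst2) and all lower for 3 members, Gstm7, Gstt1 and Gstt3 (background 19.6%). These counts are descriptions, and no test of the list was made. In RNA from whole cultures, fewer cells that express a gene and less RNA per cell cannot be told apart.

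**Figure D4:**
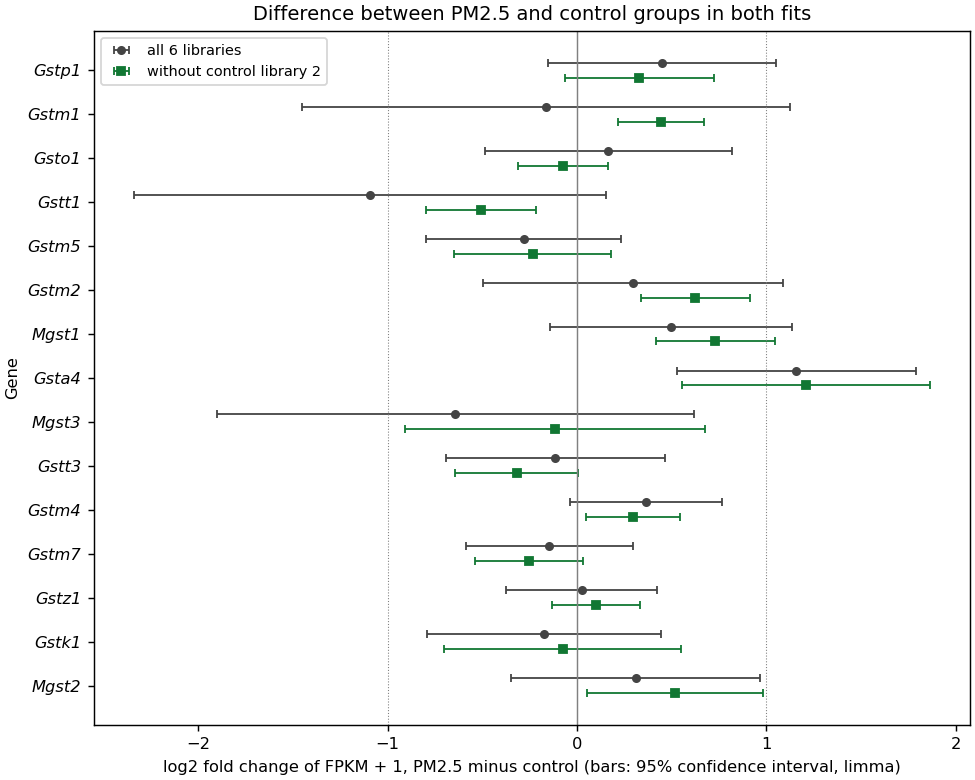
Log2 fold change of FPKM + 1 (PM2.5 minus control, horizontal axis) of the 15 tested genes from limma, with bars for the 95% confidence interval, circles for all 6 libraries and squares for the fit without control library 2. Gsta4 lies at 1.16 and 1.21 with intervals above 0 in both fits, and the intervals of Gstm1 and Gstt1 are narrower without control library 2.

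Gsta4 is the alpha-class enzyme known for conjugating hydroxynonenal, an aldehyde from lipid peroxidation. The gene (ENSMUSG00000032348, M21 on GRCm38, chr9:78182774-78209349) was at 6.55, 7.86 and 7.45 FPKM in control libraries 1, 2 and 3 and at 14.3, 15.0 and 24.7 FPKM in PM2.5 libraries 1, 2 and 3. Every PM2.5 library was higher than every control library, PM2.5 library 3 was the highest, and control library 2 lay close to the other control libraries. The group means were 7.29 ± 0.665 and 17.99 ± 5.81 FPKM (SD, n = 3 each). The log2 fold change was 1.16 (SE 0.26), with an adjusted p of 0.538 by limma, and the PM2.5 group was higher in 3 of 3 libraries. Without control library 2 it was 1.21 (SE 0.26), with an adjusted p of 0.130 by limma. The gene was not called in either fit. None of its transcript sequence in stretches of 31 bases is shared with another gene.

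The other alpha-class genes had few reads. Gsta2 had 1, 0 and 1 reads in the control and 6, 9 and 6 reads in the PM2.5 libraries. Every PM2.5 library was higher, at a depth of at most 9 reads. The ratio of PM2.5 to control, scaled as the FPKM values are, was 9.69, with an exact 95% counting interval from 2.37 to 85.3, and 7.16 (1.75 to 63.0) without control library 2. Scaled to recovered reads it was 10.52 and 7.22. Gsta1 had 1, 0 and 0 reads in the control and 8, 2 and 1 reads in the PM2.5 libraries, with overlapping groups and a ratio of 10.2 (exact 95% counting interval 1.48 to 437), and 7.498 (1.09 to 323) without control library 2. Gsta3 had 0, 2 and 1 reads in the control and 3, 5 and 5 reads in the PM2.5 libraries. Of the transcript stretches of 31 bases, 92.9% in Gsta1 and 60.7% in Gsta2 occur in other genes, so that reads could be divided between copies. These 3 genes were named after their values were seen, and the intervals cover counting error within these libraries only.

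The mu class holds 7 genes side by side on chromosome 3 and was the class with most reads (31861). Gstm1 (ENSMUSG00000058135, chr3:108012255-108017973) was at 72.8, 254 and 69.6 FPKM in control libraries 1, 2 and 3 and at 94.3, 101 and 95.9 FPKM in PM2.5 libraries 1, 2 and 3. The PM2.5 libraries lay close together, above control libraries 1 and 3 and below control library 2. Its log2 fold change was -0.16 (SE 0.53; limma, adjusted p 0.929) with all 6 libraries and 0.44 (SE 0.09; limma, adjusted p 0.119) without control library 2, so the direction turned on that library, and with all 6 libraries it also turned under quantile normalization (0.0844). Of its transcript stretches of 31 bases 28.8% occur in other genes, mostly the pseudogene Gstm2-ps1.

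Gstm2 was at 32.6, 64.8 and 31.8 FPKM in the control and at 55.7, 49.3 and 45.9 FPKM in the PM2.5 libraries. All PM2.5 libraries were above control libraries 1 and 3, and control library 2 was the highest of all on the deposited scaling. Scaled to recovered reads PM2.5 library 1 would be above it (1670 of 17000293 reads, against 1412 of 16209346). The log2 fold change was 0.29 (SE 0.32; limma, adjusted p 0.875) and, without control library 2, 0.62 (SE 0.11; limma, adjusted p 0.104). Gstm4 was at 3.41, 2.75 and 3.28 FPKM in the control and at 4.69, 4.06 and 4.25 FPKM in the PM2.5 libraries. Its groups did not overlap, with log2 fold changes of 0.36 (limma, adjusted p 0.875) and 0.29 (limma, adjusted p 0.260).

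Gstm5, known from testis and brain, was at 52.2, 56.6 and 50.2 FPKM in the control and at 37.3, 41.7 and 52.2 FPKM in the PM2.5 libraries. PM2.5 library 3 lay within the control range, and the other PM2.5 libraries lay below it. The log2 fold changes were -0.28 and -0.24, with adjusted p of 0.875 and 0.526 by limma. Its exons overlap those of a gene on the opposite strand, 4933431E20Rik, over 13.9% of their bases, and their reads cannot be told apart without strand. Gstm7 was at 2.66, 2.07 and 3.01 FPKM in the control and at 2.41, 1.97 and 2.28 FPKM in the PM2.5 libraries. The groups overlapped through control library 2 alone, with log2 fold changes of -0.15 and -0.25 (limma, adjusted p 0.875 and 0.361). Gstm6 had 28, 29 and 29 reads in the control and 28, 29 and 19 reads in the PM2.5 libraries, and Gstm3 had at most 3 reads in any library.

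The theta-class enzymes act on small halogenated compounds and epoxides. Gstt1 (ENSMUSG00000001663, chr10:75783813-75798584) was at 41.7, 146 and 43.3 FPKM in control libraries 1, 2 and 3 and at 31.3, 31.3 and 26.4 FPKM in PM2.5 libraries 1, 2 and 3. Every PM2.5 library was lower than every control library, and control library 2 was far above the rest. The log2 fold change was -1.09 (SE 0.51; limma, adjusted p 0.875), and -0.51 (SE 0.11; limma, adjusted p 0.140) without control library 2. The PM2.5 group was lower in 3 of 3 libraries, and the size of the estimate rested on control library 2. Its neighbour Gstt3 was at 7.77, 4.29 and 6.47 FPKM in the control and at 5.20, 5.15 and 6.16 FPKM in the PM2.5 libraries. Control library 2 was the lowest of the 6, and the others of the control group were above the PM2.5 group. The log2 fold changes of Gstt3 were -0.11 and, without control library 2, -0.32 (limma, adjusted p 0.900 and 0.324). Gstt2 had 35, 65 and 33 reads in the control and 34, 30 and 36 reads in the PM2.5 libraries. Gstt4 had 0, 10 and 0 reads in the control and 3, 7 and 1 reads in the PM2.5 libraries, so control library 2 held all of the control reads.

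Gstp1, the pi-class enzyme and the highest of the 67 genes, was at 143, 111 and 142 FPKM in the control and at 192, 200 and 150 FPKM in the PM2.5 libraries. The groups did not overlap, but PM2.5 library 3 lay near control libraries 1 and 3. The log2 fold change was 0.45 (SE 0.25; limma, adjusted p 0.875) and 0.33 (SE 0.15; limma, adjusted p 0.381) without control library 2. Its neighbour Gstp2, with which 38.5% of the transcript stretches of Gstp1 are shared, was at 0.350, 1.20 and 0.360 FPKM in the control and at 0.509, 0.146 and 0.144 FPKM in the PM2.5 libraries.

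The omega-class Gsto1, a thioltransferase that also reduces dehydroascorbate, was at 78.7, 47.0 and 77.6 FPKM in the control and at 72.9, 70.9 and 78.7 FPKM in the PM2.5 libraries. The groups overlapped, and control library 2 was the lowest. Its log2 fold change was 0.16 and, without control library 2, -0.08, with adjusted p of 0.879 and 0.725 by limma. Gsto2 was at 0.313, 0.199 and 0.429 FPKM in the control and at 0.180, 0.509 and 0.285 FPKM in the PM2.5 libraries, which overlapped. The kappa-class Gstk1, found in mitochondria and peroxisomes, ranged from 1.47 to 2.15 FPKM in the control and from 0.921 to 2.26 FPKM in the PM2.5 libraries, with log2 fold changes of -0.17 and -0.08 (limma, adjusted p 0.876 and 0.899). The zeta-class Gstz1, which isomerizes maleylacetoacetate in tyrosine breakdown, ranged from 2.07 to 2.64 FPKM in the control and from 2.27 to 2.39 FPKM in the PM2.5 libraries, with log2 fold changes of 0.02 and 0.10 (limma, adjusted p 0.965 and 0.624). Both overlapped between the groups of 3, Gstz1 through control library 2 alone, and 12.2% of the exon bases of Gstz1 lie opposite exons of other genes, Pomt2 among them.

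The MGST genes code for membrane-bound enzymes. Mgst1, a transferase and peroxidase of the endoplasmic reticulum and the outer mitochondrial membrane (ENSMUSG00000008540, chr6:138140316-138156755), was at 15.1, 25.7 and 15.8 FPKM in control libraries 1, 2 and 3. It was at 23.7, 25.9 and 29.7 FPKM in PM2.5 libraries 1, 2 and 3. All PM2.5 libraries were above control libraries 1 and 3, and control library 2 lay among them. The log2 fold change was 0.50 (SE 0.26; limma, adjusted p 0.875) with all libraries and 0.73 (SE 0.12; limma, adjusted p 0.0871) without control library 2. The latter was the lowest adjusted p of the 15 members in that fit. Mgst2, which can make leukotriene C, was at 0.742, 1.48 and 0.494 FPKM in the control and at 0.937, 1.35 and 1.69 FPKM in the PM2.5 libraries. Mgst3 was at 5.16, 16.8 and 4.70 FPKM in the control and at 6.33, 5.09 and 2.67 FPKM in the PM2.5 libraries. Both overlapped between the groups of 3, and control library 2 was the highest of all for Mgst3. With all libraries the log2 fold change was 0.31 for Mgst2 and -0.64 for Mgst3 (limma, adjusted p 0.875 for both). The values without control library 2 were 0.52 and -0.11 (limma, adjusted p 0.283 and 0.878).

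The adjusted p of several members moved with PM2.5 library 3 as well. With both control library 2 and PM2.5 library 3 left out, 9 members (Gsta4, Gstm1, Gstm2, Gstm4, Gstm5, Gstp1, Gstt1, Gstt3 and Mgst1) had an adjusted p under 0.05 by limma, as did 5602 of 11884 genes. None of the 9 had an absolute log2 fold change above 1, and Gsta4 was at 0.97.

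The genes that work around the conjugating enzymes were described by lists, with 108 different genes of which 83 were tested. With all 6 libraries limma called 1 of the 83, Cyp1a1, and without control library 2 it called 3, Cyp1a1, Cyp1b1 and Hmox1. Cyp1a1 passed the threshold of 1 FPKM through the PM2.5 group, and without it the counts are 0 and 2. All 3 are in the list of AhR and NRF2 reference targets. At an unadjusted p under 0.05, 13 and 31 of the 83 genes passed by limma in either direction, as did 3.80% and 15.9% of all genes tested. The shares of all genes that were higher or lower are those given for the members above, and they apply to the counts of each list below. In the other 7 lists limma called 0 genes in either fit.

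The AhR and NRF2 reference targets hold 12 genes, of which 11 were tested. Cyp1a1, the cytochrome induced through AhR, was at 0.0387, 0 and 0 FPKM in control libraries 1, 2 and 3 and at 6.15, 6.11 and 7.94 FPKM in PM2.5 libraries 1, 2 and 3. That is 2 reads in the control and 1008 reads in the PM2.5 libraries, a ratio of 465 scaled as the FPKM values are (exact 95% counting interval 128 to 3848), and 344 (94.9 to 2841) without control library 2. Scaled to recovered reads it was 505 and 347. Every PM2.5 library was higher, with a log2 fold change on log2 of FPKM + 1 of 2.92 (limma, adjusted p 0.0301), and 2.91 without control library 2 (limma, adjusted p 0.00757). Cyp1b1 was at 29.02, 9.41 and 27.5 FPKM in the control and at 78.8, 78.5 and 88.8 FPKM in the PM2.5 libraries. Its groups did not overlap, with log2 fold changes of 1.998 and 1.501 (limma, adjusted p 0.538 and 0.0103). Hmox1, heme oxygenase, was at 25.8, 20.4 and 26.6 FPKM in the control and at 127, 118 and 90.0 FPKM in the PM2.5 libraries. Every PM2.5 library was higher, with log2 fold changes of 2.15 and 2.03 (limma, adjusted p 0.0633 and 0.0185).

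These calls depended on the processing, while the direction did not. With all 6 libraries Cyp1a1 was called in 8 of 16 alternatives. The call was lost with voom, with no filter, with the replicate block and when any single library other than control library 2 was left out. In the fit without control library 2, Cyp1a1 and Cyp1b1 were called in 11 of 15 alternatives and Hmox1 in 10. No list gene was called when control library 1 or 3 or PM2.5 library 1 or 2 was left out as well. With PM2.5 library 3 left out instead, 6 were called, these 3 and Nqo1, Osgin1 and Chac1, and voom without control library 2 called these 3 and Slc7a11. Chac1 and Slc7a11 are in the glutathione supply list. Over the alternatives of both fits the log2 fold change ranged from 2.81 to 8.45 for Cyp1a1, from 1.44 to 2.27 for Cyp1b1 and from 1.94 to 2.30 for Hmox1.

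Of the 11 tested reference targets, 7 were higher at an unadjusted p under 0.05 by limma with all 6 libraries and 10 without control library 2, and 0 were lower in either fit. Cyp1a1 and Slc7a11 passed the threshold of 1 FPKM through the PM2.5 group, and without them 5 and 8 of 9 were higher. The median log2 fold change of the 11 was 1.34 and 0.87, against 0.02 and -0.01 for all genes tested. Nqo1, a quinone reductase, was at 19.6, 24.7 and 18.9 FPKM in the control and at 37.5, 42.2 and 53.3 FPKM in the PM2.5 libraries, without overlap. It was not called (log2 fold change 1.03 and 1.15; limma, adjusted p 0.527 and 0.0652). Tiparp, an AhR target, had log2 fold changes of 1.46 and 1.11, and the carbonyl reductase Cbr3 of 1.34 and 0.87. For Srxn1 they were 0.36 and 0.45, for Gclm 0.36 and 0.39, and for Osgin1 -0.09 and 0.72, and none of these 5 was called by limma. Osgin1 was at 43.4 FPKM in control library 2 and between 7.33 and 16.7 FPKM in the other libraries.

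**Figure D5:**
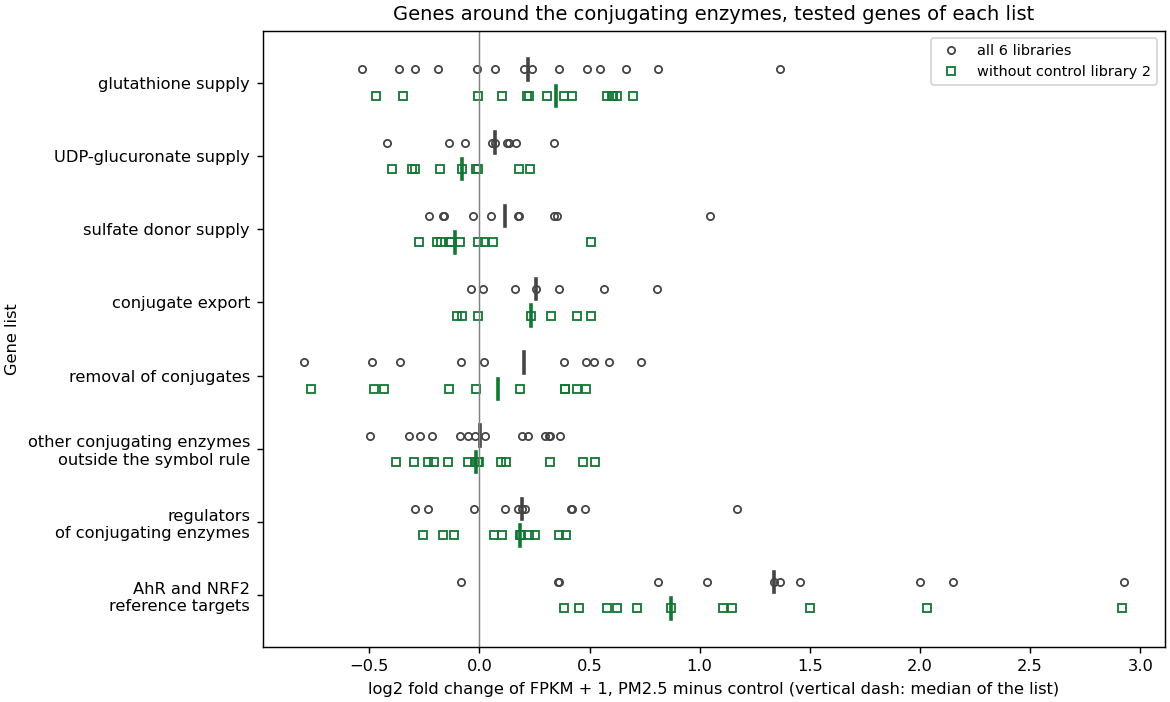
Log2 fold change of FPKM + 1 (PM2.5 minus control, horizontal axis) for each tested gene of 8 lists (vertical axis), with circles for all 6 libraries, squares for the fit without control library 2 and a vertical dash at the median of the list. The medians of the reference targets lie at 1.34 and 0.87, and those of the other 7 lists lie between -0.11 and 0.35.

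Without control library 2, glutathione supply had the highest median of the other 7 lists, and with all libraries conjugate export did. Of the 14 tested genes of glutathione supply, 2 were higher at an unadjusted p under 0.05 with all libraries and 8 without control library 2, by limma. The medians of this list were 0.22 and 0.35, and 0 of its genes were lower. Slc7a11, Gclm and Txnrd1 were counted among the reference targets as well. Without Slc7a11, which passed the threshold of 1 FPKM through the PM2.5 group, 1 and 7 of 13 were higher. Txnrd1, thioredoxin reductase, was at 43.5, 8.58 and 44.3 FPKM in the control and at 71.6, 68.2 and 64.9 FPKM in the PM2.5 libraries. The groups did not overlap, and control library 2 was far below the rest, so that the log2 fold change of 1.37 was 0.62 without it (limma, adjusted p 0.875 and 0.0648). Slc7a11, the cystine carrier, was at 0.867, 0.144 and 0.821 FPKM in the control and at 1.66, 1.65 and 1.97 FPKM in the PM2.5 libraries. It was higher in 3 of 3 PM2.5 libraries, with log2 fold changes of 0.81 and 0.58 (limma, adjusted p 0.875 and 0.111). Chac1, which degrades glutathione, had log2 fold changes of 0.55 and 0.70 (limma, adjusted p 0.875 and 0.378).

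Among 7 tested genes of conjugate export, 1 was higher at an unadjusted p under 0.05 with all libraries and 3 without control library 2 (limma), 0 were lower, and the medians were 0.26 and 0.23. Abcc1, which exports glutathione conjugates, was at 7.56, 3.52 and 7.32 FPKM in the control and at 11.6, 11.9 and 9.53 FPKM in the PM2.5 libraries. It did not overlap between groups, with log2 fold changes of 0.80 and 0.50 (limma, adjusted p 0.875 and 0.167). The log2 fold changes were 0.56 and 0.32 for Abcc4 and 0.16 and 0.44 for Abcb1b. For removal of conjugates, 2 of 10 tested genes were higher and 2 lower at an unadjusted p under 0.05, and 2 and 3 without control library 2 (limma), with medians of 0.20 and 0.08. Ggt5, a gamma-glutamyltransferase that acts on glutathione conjugates, was at 6.71, 7.11 and 6.37 FPKM in the control and at 3.68, 3.61 and 3.07 FPKM in the PM2.5 libraries. All PM2.5 libraries were lower, at log2 fold changes of -0.80 and -0.76, which were not called (limma, adjusted p 0.468 and 0.0606). The log2 fold changes of the arylsulfatase genes were 0.73 and 0.39 for Arsb and 0.48 and 0.49 for Arsa.

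The donor lists of the other families held few genes at an unadjusted p under 0.05. In UDP-glucuronate supply these were 0 of 9 tested genes in either fit by limma, with medians of 0.07 and -0.08. The log2 fold changes with and without control library 2 were -0.42 and -0.02 for the phosphoglucomutase gene Pgm2, 0.34 and -0.18 for Pgm1, -0.07 and -0.39 for Ugp2 and 0.17 and -0.31 for Uxs1. Control library 2 thus set the direction for Pgm1 and Uxs1 and the size for all 4. In sulfate donor supply, 0 of 10 genes passed with all libraries, and 1 was higher and 1 lower without control library 2 (limma), with medians of 0.12 and -0.11. Bpnt1, which clears the spent sulfate donor, was at 32.99, 3.44 and 34.0 FPKM in the control and at 35.7, 34.8 and 34.5 FPKM in the PM2.5 libraries. Its log2 fold change of 1.05 with all libraries was 0.06 without control library 2, the library with the low value. For the sulfate carrier Slc26a11 the values were 0.35 and 0.51, and for Slc35b2, which moves the donor into the Golgi, -0.17 and -0.28.

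Of 14 tested conjugating enzymes outside the symbol rule, 0 passed an unadjusted p under 0.05 with all libraries, and 2 were higher and 2 lower without control library 2 (limma). The medians were 0.00 and -0.01. Log2 fold changes were -0.50 and -0.20 for the methyltransferase Tpmt, 0.37 and 0.12 for Ptges2, and 0.30 and 0.47 for the elongation factor gene Eef1g, which holds a GST domain. Of 11 tested regulators, 0 passed with all libraries, and 1 was higher and 1 lower without control library 2 (limma), with medians of 0.19 and 0.18. Nfe2l2, which codes for NRF2, was at 22.1, 3.62 and 22.1 FPKM in the control and at 27.3, 28.5 and 32.6 FPKM in the PM2.5 libraries. All PM2.5 libraries were higher, and the log2 fold change of 1.17 was 0.40 without control library 2 (limma, adjusted p 0.875 and 0.198). The values for the small Maf genes were 0.48 and 0.19 for Mafk and 0.42 and 0.36 for Maff.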

How the data were processed

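RNA of 3 control and 3 PM2.5 libraries was sequenced as 150 bp paired-end reads, and counting by strand was not stated. The authors aligned reads with HISAT2 (2.0.5), counted them per gene with featureCounts (1.5.0-p3) and deposited FPKM values, used here as deposited. The submitters' processing notes name the mouse build mm9, while the deposited FPKM gave whole reads with exon lengths of GENCODE M21 (GRCm38), whose positions are given. Reads were whole within 0.02 read in all libraries for 24055 of 25249 genes (95.3%), and for 63 of the 67 members. Gstp1, Gstp2, Gsto1 and Gsto2 were the exceptions, so their reads, and sums that hold them, are approximate. The authors' test (DESeq2) was not run. The deposited values, as log2(FPKM + 1), were fitted with limma (3.58.1, R 4.3.3; trend and robust options, Benjamini-Hochberg adjustment) over the 11884 genes with a mean of at least 1 FPKM in the 6 libraries, after a test on simulated data. Fold changes of low genes are understated on this scale. Other values came from Python 3.11.15 with pandas 2.3.3 and scipy 1.17.1. Members and lists were chosen with earlier results of these data known. Named genes were every member with a mean of at least 1 FPKM or at least 10 reads in a library. From each list they were any called gene, the 2 tested genes with the largest absolute log2 fold change in each fit, and the tested reference targets. A gene taken by this rule is not reported here. Alternatives covered the pseudocount, filter, scaling, variance options, voom, a replicate block and each library left out. Of the listed genes, Sts was not matched in the annotation and is not used here.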

Additional observations from a re-analysis of the deposited data

How the results depend on the processing

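No member was called with all 6 libraries under any alternative run, and without control library 2 the replicate block alone called 1 (Gsta4, log2 fold change 1.31, limma adjusted p 0.0432; 0.000763 to 0.845 over the alternatives of that fit). Same-numbered libraries correlated at -0.285, 0.180 and 0.253 in their deviations from the group mean, which control library 2 pulled away from the other controls. Control libraries 1 and 3 thus correlated alike with PM2.5 library 1 (-0.285 and -0.252) and with PM2.5 library 3 (0.292 and 0.253). Control library 2 went the other way with both (0.276 and -0.280). Whether the numbers pair the libraries therefore cannot be told from these correlations. The replicate block called 0 list genes with all libraries, against 1 without the block, and 3 without control library 2, the same 3 as without the block. Expressed members numbered 14 to 17 under other thresholds. Of 465 member fold changes under alternatives, 11 turned sign. With all libraries these were Gstm1 (0.0844 by quantile normalization, 0.44 without control library 2), Gstz1 (-0.00548 by quantile normalization) and, leaving out 1 library in turn, Gstm1 from -0.48 to 0.44, Gsto1 from -0.0752 to 0.290, Gstt3 from -0.32 to 0.0454, Gstz1 from -0.0237 to 0.0996 and Gstk1 from -0.38 to 0.000989. Without control library 2 they were Gstk1 (0.10 by replicate block; -0.28 to 0.10 with a library left out) and Mgst3 (-0.33 to 0.17). The causes were not tested. Scaling to recovered totals moved the median of all genes by 0.13 (log2) with all 6 libraries. A control group of 1 library was assumed to vary like the PM2.5 group.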

Other observations

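A processed pseudogene outside the symbol rule's protein-coding genes, Gstp-ps, was listed at 31.7, 73.4 and 35.2 FPKM in control libraries 1, 2 and 3 and at 35.3, 34.4 and 38.1 FPKM in PM2.5 libraries 1, 2 and 3. Control library 2 was the highest for it and the lowest for Gstp1. The pseudogene Gstm2-ps1 was at 4.18, 0.704 and 4.64 FPKM in the control libraries and at 4.52, 3.26 and 5.81 FPKM in the PM2.5 libraries, with control library 2 the lowest, whereas that library was the highest for Gstm1. The other 6 pseudogenes with such symbols, all of the SULT family, had no read in any library. Ugt1a6b had no read in the control libraries and 7, 2 and 5 reads in PM2.5 libraries 1, 2 and 3. With the control group set at 3 reads in all, the ratio was 4.31, or 3.18 without control library 2. That floor is for the summed group and not for each library, and the ratio leaves out the counting error of the PM2.5 reads. Of the Ugt1a6b transcript stretches of 31 bases, 84.2% occur in other genes. Ahrr, the repressor of AhR, was at 0.0228, 0.0163 and 0.0176 FPKM in the control libraries and at 0.154, 0.143 and 0.141 FPKM in the PM2.5 libraries, below the level at which genes were tested. These genes were named after their values were seen.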
